A study of Mus musculus with 13 samples.

Results

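The genes described here are 10 markers of tendon and of the myotendinous junction: Tnmd, Scx, Mkx, Thbs4, Comp, Cilp2, Tnc, Col12a1, Col14a1 and Col22a1. They were chosen by name, with earlier results of these data known. All 10 were found by Ensembl identifier among the 49315 gene rows of a raw count table from mouse skeletal muscle, and they were followed as a check of which piece of tissue each library holds. The 13 libraries are polyA RNA-seq of muscle from mice with both alleles of miR-181a2b2 floxed (flox, titled WT) or with a systemic knockout of that locus (KO), fed chow or a diet labelled HFSC, a name the labels do not spell out. There were 3 chow flox libraries (replicates 2 to 4), 3 chow KO (1 to 3), 4 HFSC flox (1 to 4) and 3 HFSC KO (2 to 4). The flox controls carry the floxed allele, and the driver of the deletion, the age of the mice and pooling are not stated. Hindlimb ischemia is named for the whole series, with no limb, muscle or time for any sample, and the extraction text speaks of white adipose tissue although every source label is skeletal muscle. The labels do not state that each library came from its own animal. The p-values therefore cover the spread among these 13 libraries only, part of which may be technical.

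Tendon is a dense collagen cord laid down by tenocytes, fibroblast-like cells that are specified by the transcription factors Scx and Mkx and that make the membrane protein Tnmd as they mature. Muscle fibres end on tendon at the myotendinous junction, where folded fibre ends are tied through integrins and laminin to a matrix rich in thrombospondins, tenascin C and fibril-associated collagens. Col22a1 is unusual among these collagens in being made by the muscle fibre itself at its tip. The matrix genes are not private to tendon, since fibroblasts of the muscle's own connective tissue also make several of them. In bulk RNA, fewer cells of a type and less RNA per cell cannot be told apart.

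The libraries held 20830943 to 45710227 counts (median 29011060). A gene with 0 reads is limited to 3 counts, or 0.0633 to 0.152 CPM (the usual unit of reads scaled to a common library total, here after TMM scaling of library sizes). This floor covers counting error only, whereas the 95% intervals of log2 differences come from the edgeR fit and include the spread among libraries. Libraries did not divide cleanly by their labels. On the first principal component of all tested genes, with 54.2% of the variance, the 3 chow KO libraries lay at 42.4 to 67.1 and chow flox replicate 4 lay beside them at 40.5. The other 9 libraries lay between -55 and -9.3, so results on chow are given with and without chow flox replicate 4. The targeted microRNA genes summed to at most 0.0495 CPM in any library and were 0 in every KO library, too few reads to check the genotype. Fast-fibre markers summed to 93600 to 226000 CPM and the 6 adipocyte markers to 178 to 670 CPM, so fibre markers outweighed fat markers in every library.

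Promoter sequence was examined for 4 of the 10 genes, in 5 RefSeq windows on GRCm38.p6. Each window runs from 250 bases before to 50 bases after a start site. Promoters of the other genes were not examined, which does not mean that no window exists for them. The 250 bases before the start are printed for 3 genes that differ in how far their levels moved: Tnmd (chrX:133850758-133851007, plus strand), Thbs4 (chr13:92794819-92795068, minus strand) and Tnc (chr4:64047016-64047265, minus strand, the start farther upstream of its 2 entries). They read 5′ to 3′ on the gene's strand, and capitals mark each CANNTG, the E-box pattern to which basic helix-loop-helix factors such as Scx bind. The pattern reads the same on both strands.
Tnmd: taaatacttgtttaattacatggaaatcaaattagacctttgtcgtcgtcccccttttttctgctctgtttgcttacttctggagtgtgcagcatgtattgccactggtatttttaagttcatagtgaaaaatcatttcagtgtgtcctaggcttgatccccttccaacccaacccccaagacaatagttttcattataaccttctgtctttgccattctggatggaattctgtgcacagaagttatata
Thbs4: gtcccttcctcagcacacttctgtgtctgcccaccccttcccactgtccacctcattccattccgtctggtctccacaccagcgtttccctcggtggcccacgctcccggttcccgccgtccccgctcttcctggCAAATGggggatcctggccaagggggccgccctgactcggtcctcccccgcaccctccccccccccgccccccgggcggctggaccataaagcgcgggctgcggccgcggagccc
Tnc: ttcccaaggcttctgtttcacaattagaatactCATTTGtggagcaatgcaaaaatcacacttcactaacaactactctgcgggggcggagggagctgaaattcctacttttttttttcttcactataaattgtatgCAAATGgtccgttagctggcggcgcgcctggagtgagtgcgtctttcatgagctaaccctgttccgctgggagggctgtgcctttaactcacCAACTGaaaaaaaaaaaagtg
Over their full windows, Tnmd held 0 matches, Thbs4 held 2 and Tnc held 3. The Thbs4 matches are CAAATG, 115 bases before the start, and CACCTG, which lies 43 bases after it and beyond the stretch shown. Those of Tnc begin 217, 113 and 21 bases before the start, and the other Tnc window held 2 matches. The Cilp2 window (chr8:69887343-69887642, minus strand) held 1, CAGTTG, 156 bases before the start. Among all 32851 promoter windows of 300 bases, 72.3% held at least 1 match, 39.6% at least 2 and 17.6% at least 3, so the counts of these genes are not unusual.

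All 10 genes were read in every library, the tenocyte marker Tnmd among them, with 28 to 965 reads. The lowest value of any of them was 0.474 CPM, for Mkx in chow KO replicate 3, which rests on 11 reads. Divided by annotated exon length, the order of mean levels over the libraries was Thbs4 at 42.7, Tnmd at 9.04, Col14a1 at 4.51, Comp at 3.87 and Col22a1 at 3.21 CPM per kb, then Scx at 2.89, Tnc at 2.82, Col12a1 at 2.38, Cilp2 at 1.75 and Mkx at 0.323 CPM per kb. Thbs4 was above Tnmd in 13 of 13 libraries, Tnmd above Col14a1 in 12, and Cilp2 above Mkx in 13. From Col14a1 down to Cilp2 neighbours exchanged places: each was above the next in 4 to 8 of 13 libraries, and their means lie within the spread over libraries. The genes also differed in how much they varied. Between the lowest and the highest library, CPM differed 58.4-fold for Tnc, 40.5-fold for Col12a1, 24.4-fold for Tnmd and 20.8-fold for Col14a1. The ratio was 2.39 for Scx and 3.01 for Col22a1.

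**Figure D1:**
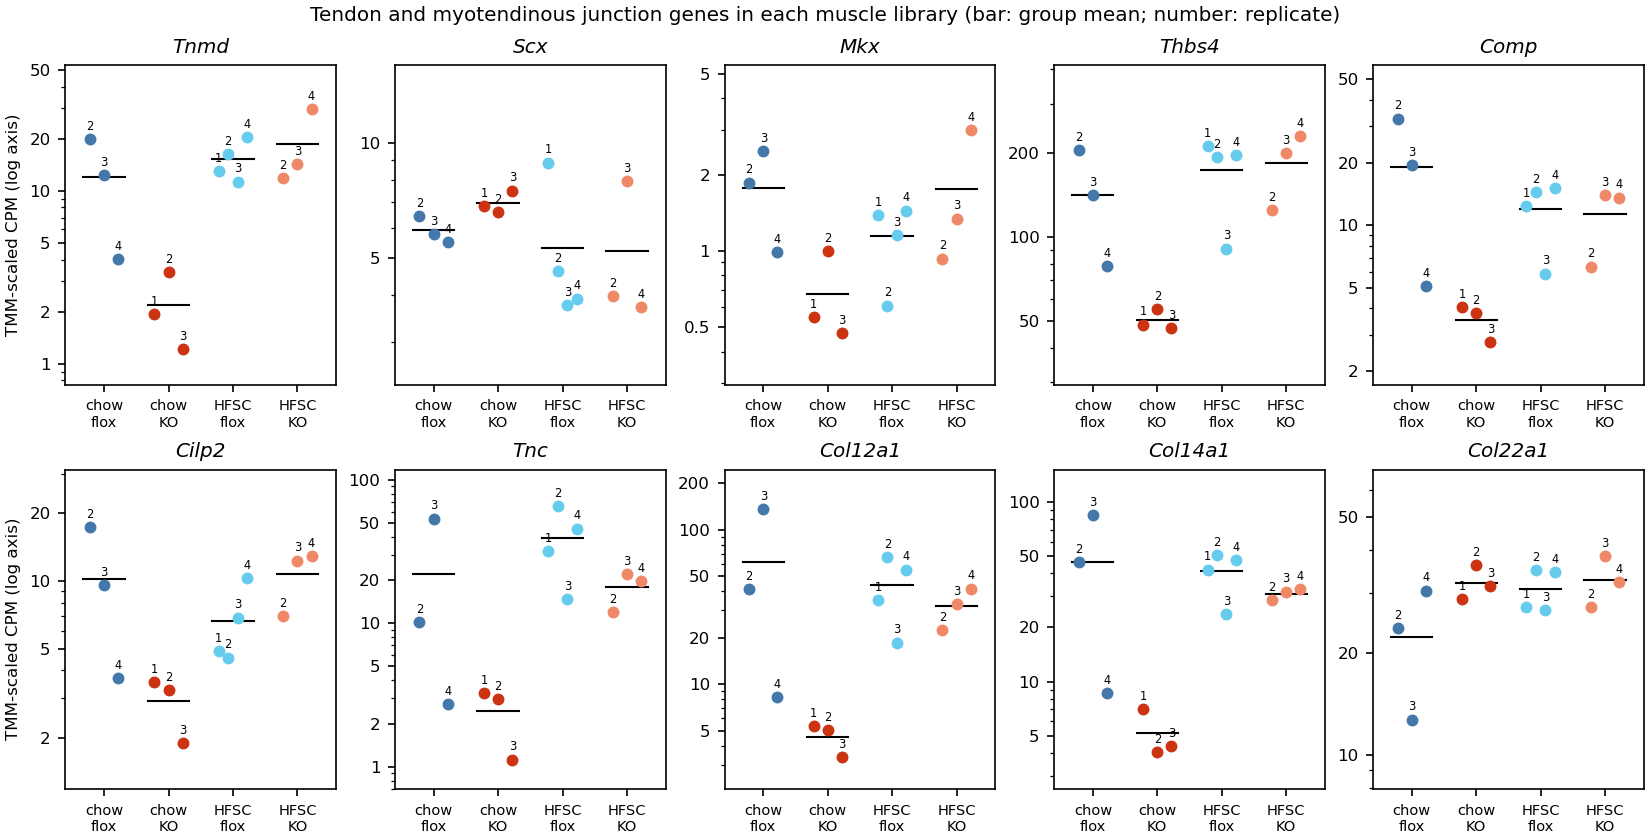
TMM-scaled CPM (log axis) of each of the 10 genes, 1 panel a gene, 1 point a library and a bar at the mean of each genotype and diet group. For Tnmd the 3 chow KO libraries sit at 1.21 to 3.4 CPM, below the other 10 at 4.04 to 29.5, while for Scx and Col22a1 the chow KO libraries sit among or above the rest.

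On chow, the mature tenocyte marker and the tendon matrix genes were lower in KO than in flox, while the 2 tendon transcription factors and the junction collagen of the fibre did not pass the test. Of the 10 genes, 7 were lower (Tnmd, Thbs4, Comp, Cilp2, Tnc, Col12a1 and Col14a1) and 0 higher at an adjusted p under 0.05 in edgeR. Over all 16496 genes tested, 10.1% were called lower. The median log2 difference was -2.12 over the 10 genes and -0.01 over all tested genes. These calls rest on a shared estimate of spread and on single libraries: with only the chow libraries in the fit 0 of the 10 were called (0.00655% of all genes were lower), and also 0 when the fit lacked replicate 3 of chow flox, or replicate 2 or replicate 3 of chow KO, where 0% of all genes were lower. The count was 2 when it lacked replicate 2 of chow flox (2.65% of all genes lower) or replicate 1 of chow KO (5.15%). Without chow flox replicate 4, the library lying with chow KO, 8 were lower where 22% of all genes were, and 1, Col22a1, was higher where 20.8% were.

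Tnmd (X:133850980-133865577, plus strand, GRCm38) encodes tenomodulin, a membrane glycoprotein of mature tenocytes. It stood at 19.8, 12.3 and 4.04 CPM in chow flox replicates 2 to 4 and at 1.94, 3.4 and 1.21 CPM in chow KO replicates 1 to 3. The groups did not overlap, and chow flox replicate 4 lay nearest the KO libraries. The difference was -2.47 ± 0.55 on the log2 scale (SE; 95% interval -3.66 to -1.28; edgeR adjusted p = 0.021), or 5.55-fold lower in KO. On HFSC, the flox libraries 1 to 4 gave 13, 16.2, 11.3 and 20.4 CPM and the KO libraries 2 to 4 gave 11.8, 14.2 and 29.5 CPM. There the genotypes overlapped, and all 7 libraries lay above chow flox replicate 4 and every chow KO library.

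Thbs4 (13:92751590-92794818, minus strand) encodes thrombospondin 4, a pentameric glycoprotein that tendon and the junction hold in quantity. Its levels were 205, 141 and 78.3 CPM in chow flox and 48.4, 55.1 and 47.1 CPM in chow KO. The 3 KO libraries lay close together, at 50.2 ± 4.25 CPM (SD, n = 3), and below every other library. The log2 difference was -1.49 ± 0.36 (SE; edgeR adjusted p = 0.0247). In HFSC flox the levels were 212, 194, 90.8 and 197 CPM, and in HFSC KO 125, 200 and 230 CPM, so that replicate 3 of the flox group and replicate 2 of the KO group were the low ones.

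Comp (8:70373558-70382066, plus strand), a thrombospondin relative that organises collagen fibrils in tendon and cartilage, was at 32.5, 19.4 and 5.11 CPM in chow flox and 4.06, 3.8 and 2.76 CPM in chow KO. The log2 difference was -2.43 ± 0.56 (SE; edgeR adjusted p = 0.0226). Cilp2 (8:69880369-69887687, minus strand), a secreted matrix protein related to the cartilage intermediate layer protein, was at 17.4, 9.61 and 3.7 CPM in chow flox and 3.55, 3.28 and 1.9 CPM in chow KO. For both genes the lowest flox library, replicate 4, lay just above the highest KO library. The log2 difference of Cilp2 was -1.82 ± 0.49 (SE; edgeR adjusted p = 0.0355). On HFSC, Comp ran from 5.88 to 15.1 CPM in flox and from 6.34 to 14 CPM in KO, and Cilp2 from 4.56 to 10.3 and from 6.98 to 12.9 CPM.

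Tnc (4:63959785-64047015, minus strand), tenascin C, is an adhesion-modulating glycoprotein of tendon, the junction and injured tissue. It was the most variable of the 10: chow flox libraries gave 10.2, 53.6 and 2.74 CPM, and chow KO libraries 3.24, 2.96 and 1.12 CPM. The groups overlapped, because chow flox replicate 4 lay below 2 of the 3 KO libraries. The log2 difference of -3.17 ± 0.89 (SE; edgeR adjusted p = 0.0407) passed the threshold, but in only 3 of the 13 fits without a single library, and it was -1.45 without chow flox replicate 3 (edgeR adjusted p = 0.314). HFSC flox libraries gave 31.9, 65.5, 14.8 and 45.7 CPM and HFSC KO libraries 11.9, 21.9 and 19.7 CPM. The group means on HFSC were 39.4 ± 21.5 (SD, n = 4) and 17.8 ± 5.25 CPM (SD, n = 3), and the log2 difference of -1.14 (95% interval -2.77 to 0.49) did not pass the test.

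Col12a1 and Col14a1 encode collagens XII and XIV, which sit on the surface of collagen I fibrils and link them to other matrix. Col12a1 (9:79598991-79718831, minus strand) was at 41.1, 136 and 8.27 CPM in chow flox and 5.36, 5.03 and 3.36 CPM in chow KO. Col14a1 (15:55307750-55520803, plus strand) was at 46.1, 84.1 and 8.65 CPM in chow flox and 7.03, 4.04 and 4.39 CPM in chow KO. Neither gene's groups overlapped, and both were highest in chow flox replicate 3. The log2 differences were -3.75 ± 0.8 for Col12a1 (SE; edgeR adjusted p = 0.0196) and -3.16 ± 0.6 for Col14a1 (SE; edgeR adjusted p = 0.0167). On HFSC, Col12a1 ran from 18.6 to 66.3 CPM in flox and from 22.3 to 41.5 CPM in KO, and Col14a1 from 23.8 to 50.5 and from 28.3 to 32.7 CPM.

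Neither of the 2 transcription factors passed the test on chow. Scx (15:76457452-76459458, plus strand), scleraxis, which marks tendon progenitors and drives matrix genes, was at 6.43, 5.77 and 5.49 CPM in chow flox and 6.82, 6.59 and 7.5 CPM in chow KO. Every KO library was above every flox library, but the log2 difference was only 0.24 (95% interval -0.48 to 0.96; edgeR adjusted p = 0.629), and scaling by library totals turned it to -0.11. Scx lies inside the Bop1 gene on the opposite strand with no shared exon bases. Bop1 had 485 to 913 counts a library against 91 to 263 for Scx, and the strand setting of the counting is not given, so a part of the Scx count could be Bop1 pre-mRNA, which was not tested. Mkx (18:6934518-7004780, minus strand), the homeobox factor Mohawk that maintains tendon fibroblasts, was at 1.86, 2.48 and 0.991 CPM in chow flox and 0.546, 0.999 and 0.474 CPM in chow KO. The groups overlapped by a small margin at replicate 4 of flox. Its log2 difference of -1.41 ± 0.5 (SE; edgeR adjusted p = 0.0789) did not pass the threshold.

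Col22a1 (15:71795795-72034227, minus strand), collagen XXII, is the marker of the fibre side of the junction. It was at 23.6, 12.7 and 30.4 CPM in chow flox, 28.7, 36.1 and 31.3 CPM in chow KO, 27.2, 35, 26.6 and 34.5 CPM in HFSC flox, and 27.2, 38.4 and 32.2 CPM in HFSC KO. Apart from chow flox replicates 2 and 3, all libraries lay between 26.6 and 38.4 CPM. The log2 difference of KO from flox on chow was 0.53 (95% interval -0.01 to 1.07; edgeR adjusted p = 0.153). Chow flox replicate 3, with the lowest Col22a1, had the highest Col12a1 and Col14a1 of all libraries.

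**Figure D2:**
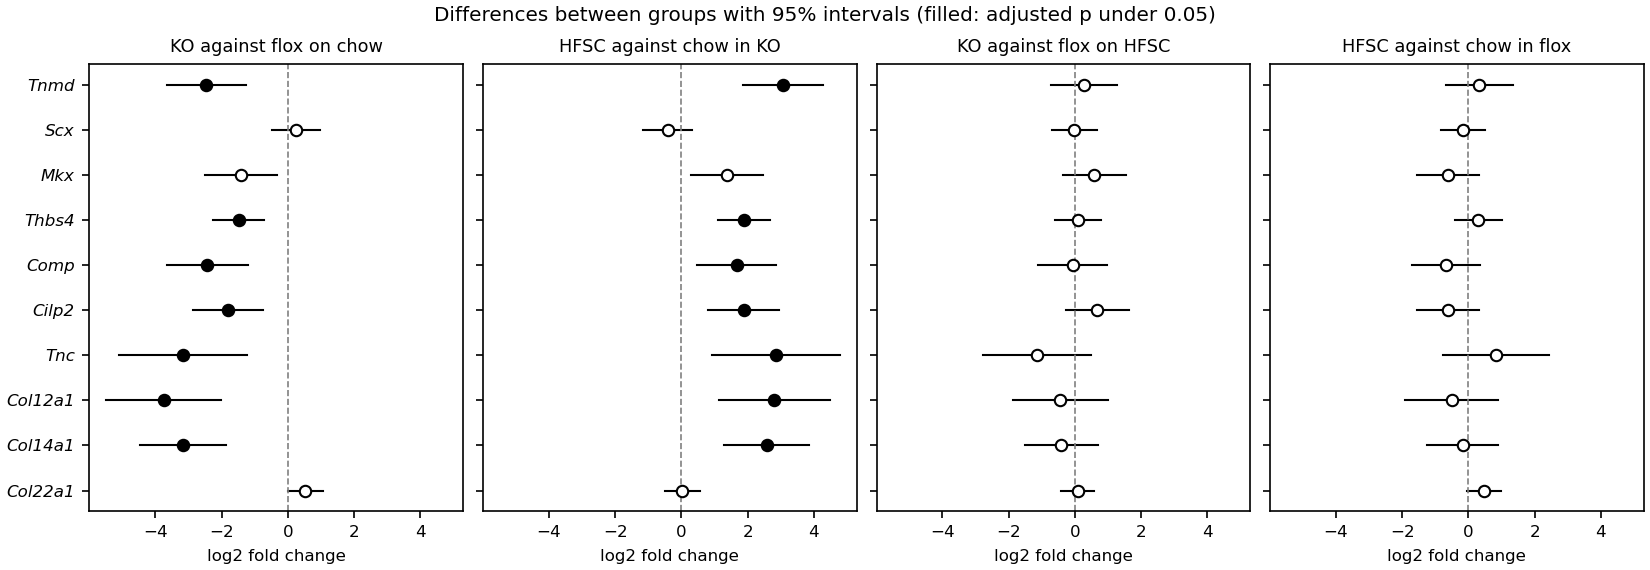
Log2 difference with its 95% interval for each of the 10 genes in each of 4 comparisons: genotype on chow, genotype on HFSC, diet in flox and diet in KO. Tnmd moves from -2.47 for genotype on chow to 0.28 for genotype on HFSC, and reaches 3.08 for diet in KO.

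On HFSC, 0 of the 10 genes differed between KO and flox at an adjusted p under 0.05 in edgeR, and 0 had an unadjusted p under 0.05. Over all genes 0.0182% were called, and 1721 of 16496 had an unadjusted p under 0.05. DESeq2 and limma voom also called 0 of the 10, with 0.435% and 0.2% called over all genes. The median log2 difference was 0.03 over the 10 genes and 0 over all tested genes. The 95% intervals still allow sizeable differences: that of Tnmd ran from -0.71 to 1.27 around 0.28, that of Thbs4 from -0.61 to 0.8 around 0.1, and that of Cilp2 from -0.26 to 1.62 around 0.68. Scx gave -0.02 (95% interval -0.7 to 0.66) and Col22a1 0.08 (95% interval -0.42 to 0.58).

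The genotype difference was compared between diets by an interaction term. In edgeR 0 of the 10 genes passed an adjusted p under 0.05, where over all genes 0% did. An unadjusted p under 0.05 was reached by 4811 of all 16496 genes and by 7 of the 10. The largest were Col12a1 at 3.31 (edgeR adjusted p = 0.0851), Col14a1 at 2.76 (adjusted p = 0.0754) and Tnmd at 2.75 (adjusted p = 0.0716) on the log2 scale. DESeq2 called 7 of the 10 where 6% of all genes were called, limma voom 7 where 42.8% were, and edgeR without chow flox replicate 4 also 7 where 34.9% were. Whether the genotype difference on chow differs from that on HFSC thus depended on the tool and on that library.

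Within flox mice, HFSC against chow gave 0 calls among the 10 genes in edgeR, and 0 at an unadjusted p under 0.05. Over all genes 0.418% were called, and 2105 of 16496 had an unadjusted p under 0.05. DESeq2 called 0 of the 10 where 1.12% of all genes were called, and limma voom called 3 where 25.1% were, close to the share over all genes. The median log2 difference was -0.17, with -0.01 over all tested genes. The nearest to the threshold was Col22a1, higher on HFSC by 0.47 on the log2 scale (95% interval -0.03 to 0.98; edgeR adjusted p = 0.427). Tnmd gave 0.33 (95% interval -0.68 to 1.33) and Comp -0.68 (95% interval -1.72 to 0.36).

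Within KO mice, 7 of the 10 genes were higher on HFSC than on chow (Tnmd, Thbs4, Comp, Cilp2, Tnc, Col12a1 and Col14a1) and 0 were lower. This comparison uses the same 3 chow KO libraries as the genotype comparison on chow, so it is not a second observation of them, and the values are given side by side. Over all genes 14.9% were called higher, and the median log2 difference was 1.88 over the 10 genes and 0.02 over all tested genes. Tnmd rose 8.44-fold, by 3.08 ± 0.56 on the log2 scale (SE; edgeR adjusted p = 0.0043), and Thbs4 3.69-fold, by 1.88 ± 0.36 (adjusted p = 0.00543). These calls of Tnmd and Thbs4 held under each of 7 other ways of fitting and in each of 13 fits without a single library. Col14a1 rose by 2.58 (adjusted p = 0.0107), Cilp2 by 1.88 (adjusted p = 0.0186) and Col12a1 by 2.81 (adjusted p = 0.0225). Tnc rose by 2.85 (adjusted p = 0.035) and Comp by 1.67 (adjusted p = 0.0426). The count fell to 2 without chow KO replicate 3, to 3 without chow KO replicate 2 or HFSC KO replicate 4, and to 4 without chow KO replicate 1. In these fits 5.41% to 10.9% of all genes were higher. Mkx gave 1.38 (adjusted p = 0.0597), Scx -0.42 (adjusted p = 0.366) and Col22a1 0.03 (95% interval -0.51 to 0.56; adjusted p = 0.949).

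The overlap of the groups was counted next. For 7 of the 10 genes chow KO and HFSC KO did not overlap, where 50.6% of all tested genes did not, and for 7 chow KO and chow flox did not overlap, where 24.8% of all did not. The second 7 are Scx and the called genes other than Tnc. For 6 genes (Tnmd, Thbs4, Comp, Cilp2, Col12a1 and Col14a1) the chow KO libraries were the 3 lowest of the 13, and for all 6 chow flox replicate 4 was the next lowest. Within groups, single libraries were lowest for most of the 10 genes. HFSC KO replicate 2 was the lowest of its group for 9 of the 10 genes, chow flox replicate 4 for 9, HFSC flox replicate 3 for 8 and chow KO replicate 3 for 7. How many of all tested genes share these rankings was not counted. Chow KO and chow flox replicate 4 also lay together on the first principal component of all tested genes, so their low rank is not shown to be particular to this set.

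**Figure D3:**
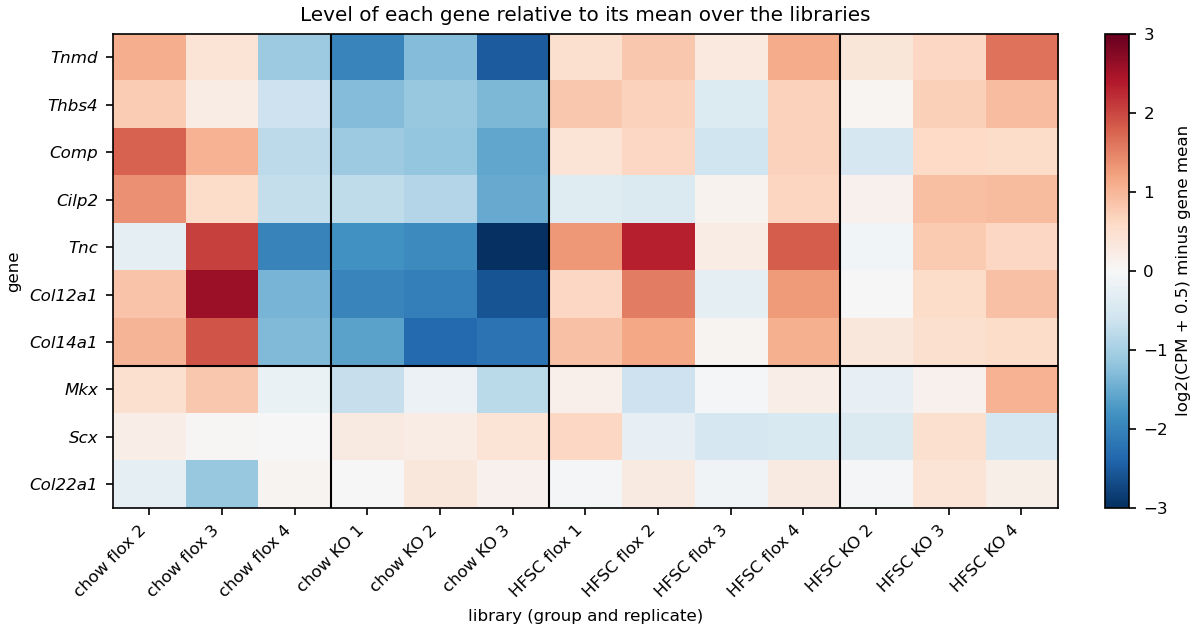
Log2(CPM + 0.5) of each gene less its mean over the 13 libraries, genes in rows, libraries in columns, blue below and red above the gene's mean. The chow KO columns and chow flox replicate 4 are blue over the 7 upper genes, which were called on chow, and near white for Scx and Col22a1.

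Across the 13 libraries the 7 genes called on chow rose and fell together. The 21 pairs among them had Pearson r of 0.6 to 0.98 on log2 CPM, with a median of 0.87: 0.95 for Tnmd with Thbs4 and 0.98 for Col12a1 with Col14a1. Mkx went with them at r of 0.5 to 0.8. Scx did not, at -0.46 to -0.1, nor did Col22a1, at -0.42 to -0.06. These values describe 13 libraries that share groups and a common difference of chow KO from the rest. The 7 were picked by their call in chow KO against chow flox, which favours a high r among them. Among 12188 genes that averaged 1 CPM or more, those most like Tnmd were Ogn (r = 0.98, rho = 0.91), Srpx2 (0.97, 0.9), Itga10 (0.97, 0.92), Axl (0.96, 0.8), Pkd2 (0.96, 0.84) and Ptn (0.96, 0.89). By r, Thbs4 ranked 26, Col14a1 400, Col12a1 484, Cilp2 676, Comp 709 and Tnc 818. Many genes outside the set thus followed Tnmd as closely. Ogn encodes osteoglycin, a small leucine-rich proteoglycan of tendon and other connective tissue, and Itga10 a collagen-binding integrin subunit. Those most like Col22a1 were Fam98a (r = 0.95, rho = 0.91), Slco3a1 (0.9, 0.76), Exoc4 (0.9, 0.55), Tob1 (0.9, 0.64), Fbxo40 (0.89, 0.59) and Stip1 (0.88, 0.62). Of the 6 genes most like Tnmd, 5 were lower in KO on chow (Itga10 gave an adjusted p of 0.072) and 6 higher on HFSC in KO, directions that their choice by likeness to Tnmd favours. None of the 6 most like Col22a1 was called in any of the 5 comparisons in edgeR.

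The wider tendon matrix was described by the same comparisons. Of 25 other tendon matrix genes, 18 were lower in KO on chow and 0 higher, with a median log2 difference of -1.57. On HFSC in KO 19 were higher, with a median of 1.68. Over all genes 10.1% were lower on chow and 14.9% higher on HFSC in KO. Col1a1, one chain of collagen I, the main fibre protein of tendon, differed by -3.69 ± 0.63 on chow (SE; edgeR adjusted p = 0.0154) and by 2.69 ± 0.61 for diet in KO (adjusted p = 0.0102). Cilp gave -2.76 (adjusted p = 0.0154) and 3.04 (adjusted p = 0.00201), and Col5a1, a regulator of fibril width, -2.77 (adjusted p = 0.0154) and 2.3 (adjusted p = 0.0043). In the genotype comparison on HFSC and the diet comparison in flox, 0 of the 25 were called in edgeR. Of all genes 0.0182% and 0.418% were called there. Without chow flox replicate 4, 20 of the 25 were lower on chow and 20 higher for diet in KO, where 22% and 20% of all genes were.

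Regulators of tendon were mixed. Of 15 tendon transcription and growth factor genes, 14 could be tested. On chow 2 were lower in KO, Tgfb1 at -1.51 (edgeR adjusted p = 0.0395) and Gli1 at -1.04 (adjusted p = 0.0312), and the list's median was -0.03. On HFSC in KO, 3 were higher, Eya2 at 1.21 (edgeR adjusted p = 0.00953), Gli1 at 1.05 (adjusted p = 0.0179) and Tgfb1 at 1.24 (adjusted p = 0.047), and the lower calls included Six2 at -2.18 (adjusted p = 0.00828). Over all genes 10.1% were lower on chow, and 14.9% were higher and 10.6% lower on HFSC in KO. Six2, a homeobox factor, was at 7.08, 7.37 and 25.2 CPM in chow flox, 27, 25.4 and 21.9 CPM in chow KO, 10.6, 16.6, 8.24 and 6.42 CPM in HFSC flox, and 6.73, 5.47 and 4.18 CPM in HFSC KO. Chow flox replicate 4 again lay with chow KO, here on the high side. Without it, 4 of the 14 were higher and 4 lower in KO on chow, near the 20.8% and 22% over all genes in that fit.

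The fibre side of the junction showed no call between genotypes on chow. Of 20 genes of that side, 0 were called between genotypes on chow in edgeR, where 11.5% of all genes were, with a median of -0.11. Without chow flox replicate 4, 3 were higher and 3 lower, a smaller share than the 20.8% and 22% over all genes in that fit. On HFSC in KO, 14.9% of all genes were higher and 10.6% lower. Of the 20, 9 were higher there and 1 lower, with a median of 0.56. They include Utrn (0.82, edgeR adjusted p = 0.00331), the dystrophin relative enriched at junctions, Itgb1 (0.64, adjusted p = 0.00472), the shared integrin chain, Xirp1 (1.77, adjusted p = 0.00529), an actin-binding protein of junctions, and Lama2 (0.61, adjusted p = 0.0152), a laminin chain.

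Markers of several other cell types were called in the same comparisons. Over all genes 10.1% were lower and 1.38% higher in KO on chow. For diet, 14.9% were higher and 10.6% lower in KO, and 0.303% were lower in flox. Of 14 fibroblast and fibro-adipogenic progenitor markers, 9 were lower in KO on chow and 11 higher on HFSC in KO. Their summed level was 1640 to 4060 CPM in chow flox, 735 to 1060 in chow KO, 2690 to 3650 in HFSC flox and 2660 to 2960 in HFSC KO. Of 10 macrophage markers, 9 were lower in KO on chow and 9 higher on HFSC in KO, and their sums were 118 to 1030, 45 to 79.5, 223 to 358 and 223 to 283 CPM in the same order. All markers of both lists were read, none under 1 CPM in all libraries. Endothelial markers were lower for 2 of 7 on chow and higher for 6 of 7 on HFSC in KO, with 1 lower there, and their sums were 234 to 398, 200 to 246, 337 to 499 and 439 to 470 CPM. Of 6 adipocyte markers 0 were called on chow and 4 were higher on HFSC in KO, with sums of 207 to 296, 178 to 223, 225 to 458 and 446 to 670 CPM. Of 6 Schwann cell markers 0 were called in either comparison, with sums of 110 to 165, 106 to 286, 109 to 182 and 125 to 182 CPM. Slow-fibre markers took another course, with 0 of 9 called on chow but 7 lower on HFSC in flox and 8 in KO. Their sums were 11600 to 13100 CPM in chow flox, 13100 to 16100 in chow KO, 3480 to 5480 in HFSC flox and 4310 to 5050 in HFSC KO. Of 10 fast-fibre markers 0 were called on chow, but 8 were higher in KO without chow flox replicate 4, a setting in which 10 of the 14 fibroblast and 9 of the 10 macrophage markers were lower. In that fit 20.8% of all genes were higher and 22% lower. The part of these cell types, and of the muscle sampled, in the tendon results was not tested.

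Comp and Cilp2 are also known from cartilage. Of 12 cartilage markers, 6 were under 0.5 CPM in all libraries and Snorc had 0 reads throughout, and the sum was 6.84 to 13.6 CPM. On chow 1 of the 6 tested was lower in KO, Matn3 at -3.93 (edgeR adjusted p = 0.0271), where 10.1% of all genes were lower. The median log2 difference of these 6 was -1.89 on chow and 1.79 for diet in KO. For diet in KO, 2 were higher and 1 lower, where 14.9% and 10.6% of all genes were. Without chow flox replicate 4, 4 of 8 tested were lower in KO on chow and 1 higher, where 22% and 20.8% of all genes were. Of 9 bone markers 3, and of 6 skin keratinocyte markers 5, were under 0.5 CPM in all libraries. Their sums were 11.1 to 134 and 1.77 to 3.36 CPM. The bone sum of 134 CPM was that of chow flox replicate 3, with Spp1 at 122 CPM. Ibsp, singled out after it was seen, was at 4.56 CPM (216 reads) in HFSC flox replicate 4 and at most 0.191 CPM elsewhere. Bglap and Bglap2 had 14 and 11 reads in that library and at most 1 elsewhere. Sp7 (0.317 CPM, 15 reads) and Dmp1 (1.01 CPM, 48 reads) were also highest in HFSC flox replicate 4, with up to 0.272 and 0.852 CPM elsewhere. Phex, Runx2, Alpl and Spp1 were highest in other libraries. Whether HFSC flox replicate 4 holds some bone was not tested.

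Since fibroblast genes moved too, the tendon genes were set against 2 of them: Pdgfra, the receptor that marks fibro-adipogenic progenitors, and Col3a1, a fibroblast collagen. Both are among the 9 of 14 fibroblast markers lower in KO on chow. Smoc2, another of the 14, averaged 66.2 CPM in chow flox and 69.5 CPM in chow KO. Ratios to the other markers were not taken, and the picture could differ with them. Per 1000 CPM of Pdgfra, Thbs4 was 3190 to 5590 in chow flox, 3340 to 4270 in chow KO, 1890 to 5200 in HFSC flox and 2310 to 5070 in HFSC KO. These ranges overlap in all 4 groups. Tnmd per 1000 of Pdgfra was 165 to 542, 109 to 232, 234 to 487 and 218 to 575 in the same order. The chow KO libraries were all below HFSC flox and overlapped with chow flox and HFSC KO. Against Col3a1 the picture was another. Thbs4 per 1000 of Col3a1 was 342 to 878 in chow KO, above every library of chow flox (59.1 to 200), HFSC flox (81.9 to 149) and HFSC KO (129 to 199). Tnmd per 1000 of Col3a1 was 13.7 to 30.1 in chow KO, overlapping with chow flox (5.17 to 15.2), HFSC flox (9.14 to 13.8) and HFSC KO (12.1 to 24.3). Col12a1 and Tnc were set against Col3a1 only. Col12a1 was 37.8 to 62.6 in chow KO, overlapping with chow flox (21.1 to 57) and HFSC flox (16.8 to 38.9) but above HFSC KO (23 to 34.3). Tnc was 20.9 to 26.2 in chow KO, overlapping with chow flox (7 to 22.4), HFSC flox (13.3 to 38.5) and HFSC KO (12.2 to 21.8). On chow, Col3a1 itself differed by -3.73 ± 0.54 on the log2 scale (SE; edgeR adjusted p = 0.0154), and Pdgfra by -1.28 ± 0.18 (adjusted p = 0.0154).

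**Figure D4:**
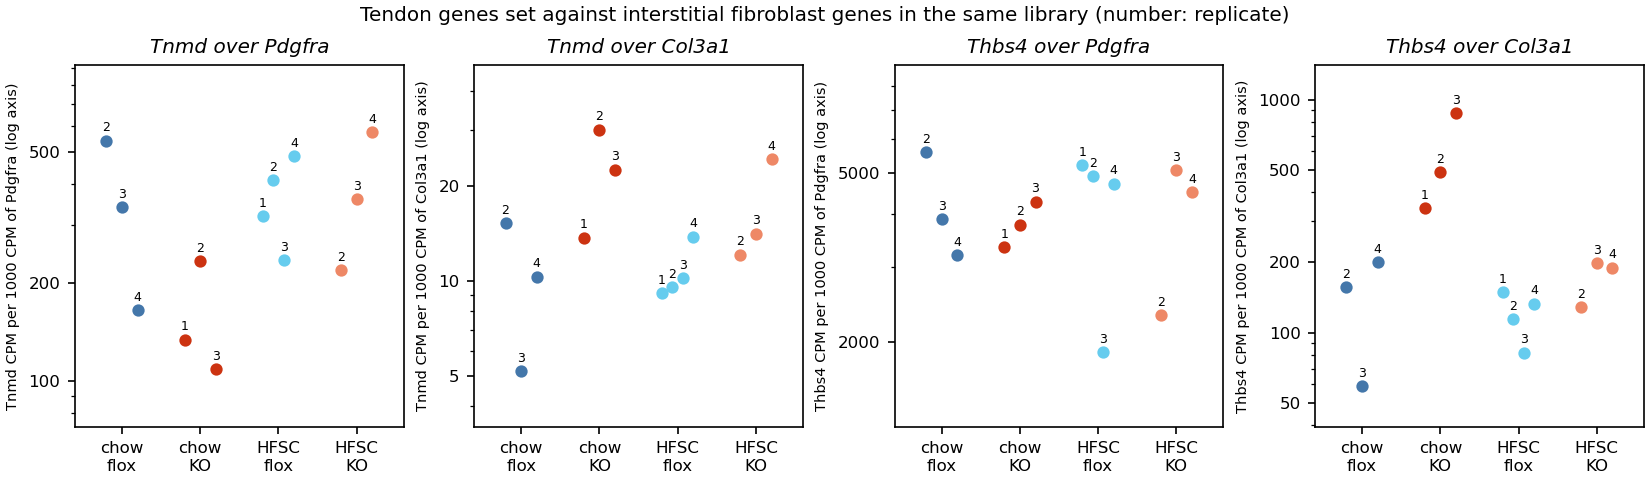
Tnmd and Thbs4 CPM per 1000 CPM of Pdgfra or of Col3a1 (log axes), 1 point a library, by genotype and diet group. Thbs4 per Pdgfra overlaps in all groups, whereas Thbs4 per Col3a1 is 342 to 878 in chow KO and at most 200 in every other library.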

How the data were processed

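The authors deposited raw gene-level read counts with Ensembl identifiers. Their tools were STAR 2.5.2b, Trimmomatic 0.36 and, from Subread 1.5.2, featureCounts, with build GRCm38, per the submitters' processing notes. Strand setting, multiply aligned reads and annotation release: not given in the sources used here. Symbols, coordinates and exon lengths came from GENCODE M21 (49056 of 49315 identifiers matched).

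The counts were tested with the quasi-likelihood F test of edgeR 4.0.16 in R 4.3.3 (robust fit, TMM scaling, filterByExpr, 16496 genes, all 10 members among them). One model held 4 group means over 13 libraries, adjusted by Benjamini-Hochberg over all genes, with a threshold of 0.05. The tests were tried on simulated counts. Alternatives were RLE and unscaled library totals, DESeq2 1.42.0, limma 3.58.1 voom with quality weights, no filter, only the groups compared, a replicate block, and leaving out each library. Likeness used log2(CPM + 0.5) and genes averaging 1 CPM or more. Of each gene list, up to 4 called genes with the smallest p could be named; 1 such gene is not reported here. The members and lists were chosen with earlier results of these data known. Mkx shares 201 exon bases with a same-strand gene not analysed here. Tnc shares 176 exon bases with an opposite-strand gene of 1 to 39 counts. Col22a1 shares 16 bases with one of at most 2 counts. Replicates all differed beyond sampling noise (chi-square per degree of freedom 10.5 to 193).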

Additional observations from a re-analysis of the deposited data

Results flagged for a closer look

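Each of the 10 genes was checked in HFSC flox, the only group of at least 4 libraries, for a library set apart from the other 3. In 2 of the 10 checks the highest or lowest library stood apart, where chance flags about 1 in 20 such groups. Scx was highest in HFSC flox replicate 1 at 8.88 CPM, with a gap to the next library of 0.834 of the group's range, just past Dixon's 95% critical value. The other 3 libraries held 3.76 to 4.61 CPM. Thbs4 was lowest in HFSC flox replicate 3 at 90.8 CPM, with a gap of 0.851 of the range. The other 3 held 194 to 212 CPM. Without HFSC flox replicate 1 the log2 difference of Scx between KO and flox on HFSC turned from -0.02 to 0.35, and without replicate 3 that of Thbs4 turned from 0.1 to -0.12, and neither passed the test in edgeR.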

How the results depend on the processing

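For genotype on chow, the 7 called members became 1 with no filter on low counts and 0 with only the groups compared in the fit. They became 8 with library totals, 8 with DESeq2 and 9 with voom (1 of them higher), and 0 to 9 when single libraries were left out. The shares of all genes called in either direction were 11.5% in the main fit and 4.18% with no filter. They were 18.8% with library totals, 9.73% with DESeq2 and 59.9% with voom. All genes called, 1898, became 3096 with library totals, 3178 with DESeq2, 9877 with voom, 1366 with no filter, 2 with only the groups compared, and 0 to 7261 without single libraries. For genotype on HFSC the members called stayed at 0 under every setting. All genes called, 3, became 0 with library totals, 142 with DESeq2, 33 with voom, 22 with no filter, 0 with only the groups compared, and 0 to 20 without single libraries. For diet in flox, voom called 3 members. All genes called, 69, became 366 with DESeq2, 4145 with voom, 4 with only the groups compared, and 15 to 1456 without single libraries. For diet in KO, the 7 members became 3 with no filter, 8 with DESeq2, 6 with voom and 2 to 8 without single libraries. The shares of all genes called in either direction were 25.5% in the main fit, 9.74% with no filter, 15.8% with DESeq2 and 43.1% with voom. All genes called, 4201, became 7116 with voom and 1459 to 6112 without single libraries, and library totals gave 2407 higher and 1046 lower in place of 2459 and 1742. For the interaction, members called were 7 with DESeq2, 7 with voom and 0 to 7 without single libraries. All genes called, 0, became 1959 with DESeq2, 7061 with voom, 161 with no filter and 0 to 5928 without single libraries. The cause of these shifts was not tested. Library totals moved the median of all genes to -0.35 on chow and 0.21 for diet in KO.

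Same-numbered libraries share only a number: over 16 pairs their deviations correlated at -0.4 to 0.13, with 2 above 0.1. With the replicate number as a block, genotype on chow gave 0 members and 0 genes, genotype on HFSC 0 genes, and diet in KO 3 members and 2382 genes.

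Among the genes named, directions turned only where the gene had not been called in that comparison. With the block they were Scx on chow (-0.05), Scx (0.16) and Comp (0.05) for genotype on HFSC, Col22a1 for diet in KO (-0.1) and Scx in the interaction (0.21). With library totals Scx became -0.11 on chow and 0.09 in the interaction. With voom, Thbs4 (-0.09) and Col22a1 (-0.01) turned for genotype on HFSC, Tnmd (-0.29) and Thbs4 (-0.17) for diet in flox, and Col22a1 (-0.12) for diet in KO. Leaving out single libraries for genotype on HFSC gave -0.24 to 0.52 for Tnmd, -0.46 to 0.35 for Scx, -0.04 to 0.9 for Mkx, -0.12 to 0.31 for Thbs4, -0.3 to 0.21 for Comp and -0.05 to 0.2 for Col22a1. For diet in flox it gave -0.08 to 0.89 for Tnmd, -1.01 to 0.01 for Cilp2, -1.02 to 0.81 for Col12a1 and -0.67 to 0.57 for Col14a1. Col22a1 for diet in KO ran from -0.11 to 0.14 and Scx in the interaction from -0.7 to 0.11. Depth limits Mkx most, with 11 to 93 reads a library.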

Other observations

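The values here were singled out after they were seen. HFSC flox replicate 1 and HFSC KO replicate 3, with the highest Scx of their groups (8.88 and 7.93 CPM), also had Ankrd1, a stress-responsive protein of stretched muscle, at 91.1 and 188 CPM and Csrp3, a mechanosensing LIM protein, at 187 and 179 CPM. HFSC flox replicate 2, with the highest Tnc (65.5 CPM), also had the highest Prg4, lubricin, at 39 CPM, and Thbs1 at 174 CPM. Spp1, osteopontin, stood at 122 CPM in chow flox replicate 3, the library with the highest Col12a1 and Col14a1. Col9a1, a cartilage collagen, was at 5.18 CPM in chow flox replicate 4 and 4.24 to 5.87 CPM in chow KO, against 0.328 to 1.75 CPM in the other 9 libraries. Other cartilage markers went the opposite way in these libraries. Col2a1 was at 0.114 CPM in chow flox replicate 4 and 0.12 to 0.205 CPM in chow KO, against 0.338 to 1.06 CPM in the other 9. Matn3, Acan and Col9a3 were also low in chow flox replicate 4 and chow KO, with some overlap with the other 9. Mstn, the muscle growth inhibitor, was at 20.3, 13.9 and 125 CPM in chow flox and 78.8 to 113 CPM in chow KO.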
